A study of Mus musculus with 4 samples.

Results

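The vascular endothelial growth factor (VEGF) genes described here are 9 of the 27998 genes in the files. They comprise 4 ligands (Vegfa, Vegfb, Vegfc and Pgf), 3 receptor tyrosine kinases (Flt1, Kdr and Flt4) and the 2 neuropilins that act as their co-receptors (Nrp1 and Nrp2). The members were listed by name as a gene family, and the list applies no threshold to any measured value, although earlier results of these data were known when it was drawn up. Their transcripts were followed in endothelial cells of the mouse heart from the embryo to the adult.

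Hearts of C57Bl6J mice were dissociated, and CD31+/CD45- cells were sorted and frozen before single-cell RNA sequencing. There were 4 groups without any engineered allele or treatment in their labels: embryonic day 12 (E12, 37 animals), embryonic day 15 (E15, 48 animals), postnatal day 2 (P2, 21 animals) and adults of 8 weeks (6 animals). Each group was 1 library of pooled animals, so stage and library cannot be told apart, cells are not replicates and no test between groups was possible. After thawing, the E12 and E15 cells were passed through a dead cell removal kit, whereas live P2 and adult cells were sorted again.

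VEGF ligands are secreted proteins that bind tyrosine kinase receptors on endothelial cells and drive their survival, migration and division. VEGF-A signals mainly through the Kdr product VEGFR2, and the Flt1 product VEGFR1 binds VEGF-A, VEGF-B and placental growth factor with high affinity and weak kinase activity, so that it can hold ligand away from VEGFR2. VEGF-C acts through the Flt4 product VEGFR3 and, when processed, VEGFR2, and in the heart it is known from the growth of lymphatic and coronary vessels.

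The values are unique molecular identifiers (UMIs), each standing for 1 captured transcript, given as CPM, the gene's UMIs for each 1000000 UMIs of a group of cells. The libraries held 5732, 6062, 5884 and 4242 barcodes at E12, E15, P2 and adulthood, and their median depth ranged from 1013 UMIs at E15 to 4531.5 at P2. Intervals in parentheses are exact 95% intervals and cover counting error only, not the differences between animals. Because reads came from the 3′ end, CPM does not grow with transcript length, but capture can differ from gene to gene, and levels of different genes are set side by side only as parts of a sum.

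Cells were placed in classes by marker UMIs. Endocardial cells had more UMIs of Npr3 and Tmem108 than of Fabp4, Cldn5 and Aplnr. Coronary cells had at least 2 UMIs of the latter genes and more of them than of the former. Artery cells had at least 3 UMIs of Cxcl12, Glul, Alpl and Nebl, and non-endothelial barcodes had none of Pecam1, Cdh5 and Egfl7. There were 1716, 2115, 1082 and 75 endocardial cells at E12, E15, P2 and adulthood, 113, 1254, 4596 and 4077 coronary cells, and 332, 69, 711 and 1875 artery cells. The 4 marker sums are ranges rather than types: 67 of the 113 coronary cells at E12, and 392 of the 1875 adult artery cells, sat exactly at the limit.

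The labels call all cells endothelial, and the markers bore this out unevenly. Barcodes without the 3 endothelial markers made up 52.3%, 30.8%, 0.221% and 3.14% of the libraries in order of age. Of the artery class, 257 of 332 barcodes at E12 and 41 of 69 at E15 lacked all 3 markers, and 292 and 48 of them held at least 3 UMIs of mesenchyme or mural genes, so the embryonic artery class is called the artery-marker barcodes below. The endocardial class, which every coronary level is set against, also held barcodes without the 3 markers, 596 of 1716 at E12 and 545 of 2115 at E15, as did 181 of 1254 coronary cells at E15. At E12 369 endocardial barcodes carried at least 3 mesenchyme or mural UMIs, and without them endocardial Kdr was at 182 CPM and Flt1 at 161. After birth the mesenchyme genes were unevenly found. In P2 endocardial cells Dcn was at 643, Postn at 524 and Col3a1 at 280 CPM, but Col1a1 at 11.8, Pdgfra at 10.2 and Sox9 at 0.77. In adult ones Dcn was at 2357 and Postn at 331 CPM, and Col1a1 and Sox9 at 0. Whether the postnatal endocardial cells with such UMIs are mesenchyme was not tested. In the artery class the 7 mesenchyme genes summed to 2614 CPM at E12 and 5453 at E15, and to only 241 and 775 CPM after birth. At P2 and in the adult, 679 and 1859 artery cells were also coronary cells. Only 13 barcodes at P2 were non-endothelial, and no member is compared there. Libraries shared 25 to 60 cell barcodes in each pair, where 33.0 to 48.4 would be shared by drawing from the list of possible barcodes.

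On mouse build GRCm38, with GENCODE gene models, Kdr (ENSMUSG00000062960) occupies chr5:75932827-75978458, Flt1 (ENSMUSG00000029648) chr5:147561604-147726011 and Flt4 (ENSMUSG00000020357) chr11:49609263-49652739. Nrp1 (ENSMUSG00000025810) lies at chr8:128358604-128503363 and Nrp2 (ENSMUSG00000025969) at chr1:62703285-62818695. The ligands lie at chr17:46016993-46032369 (Vegfa, ENSMUSG00000023951), chr19:6982473-6987651 (Vegfb, ENSMUSG00000024962), chr8:54077606-54187096 (Vegfc, ENSMUSG00000031520) and chr12:85166635-85177790 (Pgf, ENSMUSG00000004791). No exon of a member overlaps an exon of another gene, except that Nrp1 shares bases with the microRNA gene Mir1903.

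The stretches before the transcription starts of Kdr and Flt1 are shown because these are the receptors for VEGF-A whose levels are compared most closely below. They are the 250 bases upstream of each start in RefSeq for the build GRCm38.p6, both on the minus strand and printed 5′ to 3′. The stretch of Kdr is chr5:75978456-75978705, and that of Flt1 is chr5:147726012-147726261. Capitals mark AGGAAG and CCGGAA, letters found in sites of ETS factors, and ACGTG and GCGTG, the core letters of hypoxia response elements, on either strand and without overlap.
Kdr: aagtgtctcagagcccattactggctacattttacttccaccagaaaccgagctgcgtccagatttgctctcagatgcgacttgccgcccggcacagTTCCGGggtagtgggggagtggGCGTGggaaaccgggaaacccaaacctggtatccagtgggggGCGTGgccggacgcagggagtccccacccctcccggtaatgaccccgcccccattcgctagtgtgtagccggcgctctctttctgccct
Flt1: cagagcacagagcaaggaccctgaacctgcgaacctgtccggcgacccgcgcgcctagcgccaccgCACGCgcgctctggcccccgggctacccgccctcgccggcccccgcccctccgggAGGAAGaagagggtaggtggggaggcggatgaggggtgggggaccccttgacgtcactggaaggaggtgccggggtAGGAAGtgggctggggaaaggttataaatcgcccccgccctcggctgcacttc
The Kdr stretch held 1 CCGGAA and 2 GCGTG, and the Flt1 stretch 2 AGGAAG and 1 GCGTG. Among 32851 mouse stretches of the same length, AGGAAG stood in 29.5%, CCGGAA in 12%, ACGTG in 16.6% and GCGTG in 28.2%. GGGCGG, the letters of a GC box, was present in all 9 members and in 32.7% of the stretches, and ACGTG was present in no member. These matches describe the letters in this window and were not tied to any measured binding.

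Kdr, whose product is the main signalling receptor for VEGF-A, was higher in coronary than in endocardial cells at every stage, and the gap was widest in the adult. Its level in coronary cells was 226 CPM (171 to 295) at E12, then 293 (268 to 320) at E15, 361 (354 to 369) by P2 and 767 (747 to 788) in adults. In endocardial cells it was 143, 145, 150 and 134 CPM at the same stages, and the 4 intervals overlapped. The coronary levels were higher at each later stage, although the E12 and E15 intervals overlapped, while the endocardial levels stayed between 134 and 150 CPM. The ratio of coronary to endocardial cells was 1.59 (1.17 to 2.11), 2.02 (1.76 to 2.33), 2.41 (2.24 to 2.60) and 5.72 (3.95 to 8.62). Without barcodes of at least 3 mesenchyme or mural UMIs, endocardial Kdr was higher, at 182, 158, 155 and 166 CPM. Coronary Kdr was then at 242, 298, 391 and 811 CPM, so the E12 levels lay closer together than with all barcodes. With each cell thinned to 500 UMIs, Kdr was found in 14.2%, 13.9%, 16.8% and 31.6% of coronary cells and in 7.36%, 7.34%, 7.49% and 9.33% of endocardial cells. Without thinning the coronary shares were 42.5%, 31.2%, 73.8% and 62.3%, with the highest share in the deepest library. In barcodes assigned to mesenchyme genes, which should lack the receptor, the thinned share was 0.617% at E12 and 1.14% at E15. Their median depths were 1421 and 1276 UMIs, against 1997 and 1169.5 in coronary cells. The adult endocardial level rested on 28 UMIs of 75 cells.

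Flt1, the decoy-like receptor, differed little between coronary and endocardial cells before adulthood. Its endocardial level was 123 CPM (110 to 138) at E12, then 184 (168 to 202) at E15, 248 (234 to 262) by P2 and 378 (300 to 472) in adults. In coronary cells it was 152, 179, 230 and 663 CPM. The ratio of coronary to endocardial cells was 1.24 (0.85 to 1.74), 0.97 (0.83 to 1.12), 0.93 (0.87 to 0.99) and 1.75 (1.40 to 2.22). Unlike Kdr, Flt1 was thus higher at each later stage in endocardial cells.

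Among the endocardial, coronary and artery classes, Flt4, the receptor for VEGF-C that marks lymphatic endothelium, was highest in the E12 coronary cells. The coronary levels were 86.4 CPM (53.5 to 132) at E12, then 35.7 (27.3 to 46.0) at E15, 29.4 (27.2 to 31.7) by P2 and 30.7 (26.8 to 35.1) in adults. The endocardial levels were 28.7, 21.7, 16.2 and 19.2 CPM, and the ratio fell to between 1.60 and 1.81 after 3.01 at E12 (1.76 to 4.96). Of the 113 coronary cells at E12, 12 held at least 2 lymphatic UMIs, and the list of 6 lymphatic genes summed to 687 CPM over all 113, against 32.7 in endocardial cells. Without barcodes of at least 2 lymphatic UMIs the Flt4 ratio was 2.93, 1.53, 1.32 and 1.23, so it was as large at E12 without them.

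**Figure D1:**
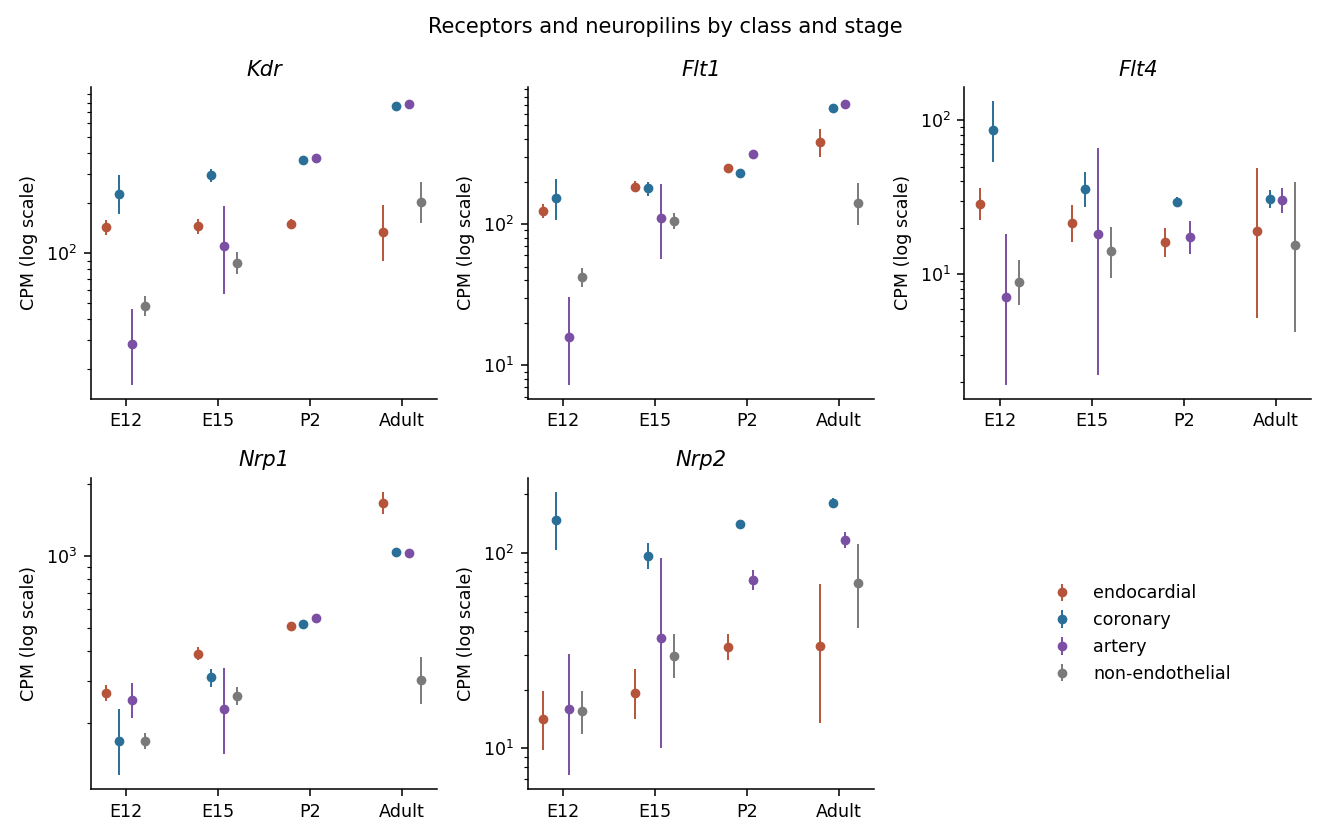
Levels of Flt1, Kdr, Flt4, Nrp1 and Nrp2 in CPM on a log scale, for endocardial, coronary, artery and non-endothelial barcodes at E12, E15, P2 and adulthood. Points are 1 library each and bars exact 95% Poisson intervals of counting error; the P2 non-endothelial group of 13 barcodes is left out. Coronary Kdr stands at 226, 293, 361 and 767 CPM while endocardial Kdr stays between 134 and 150.

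The neuropilins bind VEGF ligands beside the kinases and class 3 semaphorins with plexins, and they divided the classes in opposite ways. Nrp1, the partner of VEGFR2, was at 266 CPM (246 to 288) at E12, then 390 (366 to 416) at E15, 508 (489 to 528) by P2 and 1672 (1501 to 1857) in adults in endocardial cells. In coronary cells it was 169, 311, 518 and 1040 CPM. The coronary to endocardial ratio was 0.63 (0.45 to 0.87), 0.80 (0.71 to 0.89), 1.02 (0.98 to 1.06) and 0.62 (0.56 to 0.69). Nrp1 was therefore lower in coronary cells at E12, E15 and in the adult, within 2-fold, and level at P2. Thinned to 500 UMIs, Nrp1 was found in 49.3% of adult endocardial cells (37.6 to 61.1) and in 38.2% of adult coronary cells (36.7 to 39.8).

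Nrp2, the partner of VEGFR3 and a marker of veins and lymphatics, was the member with the widest gap in the embryo. In endocardial cells it was at 14.1, 19.2, 33.2 and 33.5 CPM at E12, E15, P2 and adulthood. In coronary cells it was at 148 CPM (104 to 205), 97 (82.7 to 113), 141 (136 to 146) and 180 (171 to 190). The ratios were 10.5 (6.39 to 17.2), 5.05 (3.63 to 7.14), 4.25 (3.64 to 4.98) and 5.38 (2.60 to 13.4). Without the barcodes with lymphatic UMIs they were 7.58, 4.59, 4.09 and 6.05, still past 2-fold at each stage. The adult endocardial level rested on 7 UMIs.

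Of the summed UMIs of both neuropilins, Nrp2 took 5.0%, 4.7%, 6.1% and 2.0% in endocardial cells and 46.8%, 23.8%, 21.4% and 14.8% in coronary cells. This part was lower at each later stage in coronary cells and was 37.7%, 21.3%, 19.4% and 14.7% without the barcodes with lymphatic UMIs. Of the summed UMIs of Flt1 and Kdr, Flt1 took 46.4% (42.5 to 50.2), 56.0% (52.5 to 59.5), 62.3% (60.2 to 64.4) and 73.8% (64.4 to 81.9) in endocardial cells. In coronary cells it took 40.2% (30.1 to 51.0), 37.9% (34.5 to 41.4), 38.9% (38.1 to 39.7) and 46.4% (45.4 to 47.3). The endocardial part was larger at each later stage, whereas the coronary intervals overlapped up to P2, and the intervals of both classes overlapped at E12 alone. Both counts come from the same cells, so these parts do not depend on how the libraries were scaled.

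**Figure D2:**
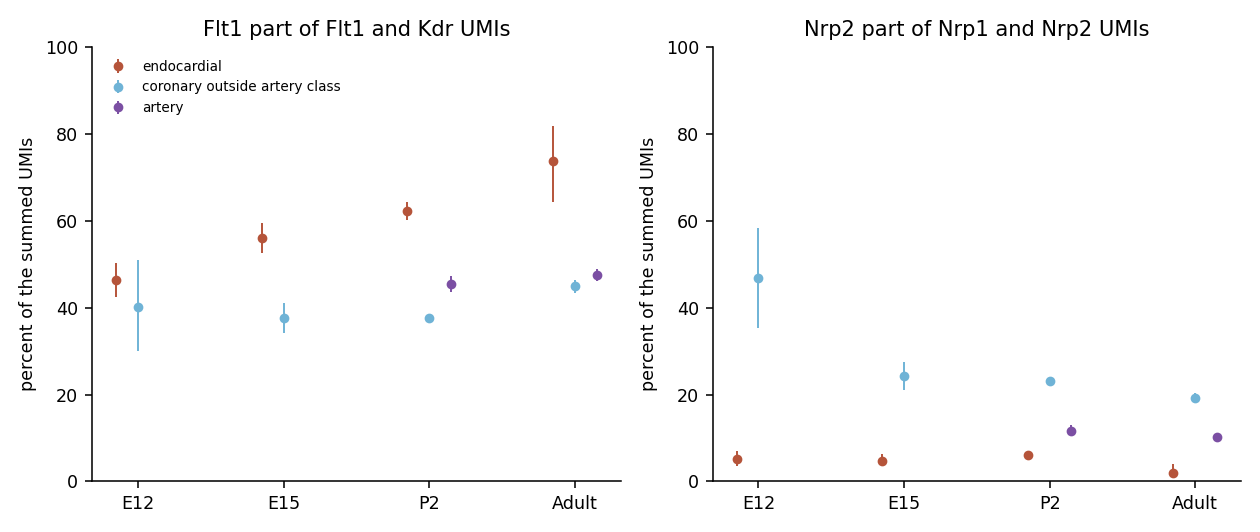
Flt1 as a percent of the summed Flt1 and Kdr UMIs, and Nrp2 as a percent of the summed Nrp1 and Nrp2 UMIs. Shown are endocardial cells and coronary cells outside the artery class at each stage, and artery cells at P2 and in the adult. Bars are exact 95% binomial intervals. The endocardial Flt1 part runs from 46.4% at E12 to 73.8% in the adult. The Nrp2 part of coronary cells outside the artery class runs from 46.8% to 19.2%.

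Among the ligands Vegfa was scarce in these cells. It was at 8.89, 7.36 and 4.83 CPM in endocardial cells at E12, E15 and P2, with 22, 18 and 25 UMIs, and no UMI was found in the adult, where 3 UMIs would be 14.4 CPM. In coronary cells it was at 12.3, 16.7, 9.98 and 3.62 CPM. At P2 the coronary level was 2.07 times the endocardial level (1.37 to 3.26), and at the other stages fewer than 50 UMIs stood behind the ratio.

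Vegfb, a ligand of VEGFR1, was at least 2-fold lower in coronary than in endocardial cells at E12, E15 and P2. It was at 48.5 CPM at E12 (40.2 to 58.0), 47.0 at E15 (38.8 to 56.4) and 22.8 at P2 (18.9 to 27.3) in endocardial cells, and at 12.3, 14.3 and 9.47 CPM in coronary cells. The ratio was 0.25 (0.05 to 0.76), 0.30 (0.19 to 0.47) and 0.42 (0.33 to 0.52). In the adult 19 coronary UMIs stood against 3 endocardial ones, under the minimum of 50 UMIs. The non-endothelial barcodes of E12 and E15 had 54.8 and 43.0 CPM, at 1.39 (1.13 to 1.71) and 1.22 (0.93 to 1.58) times the level of all other barcodes.

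Vegfc, the ligand of VEGFR3, was higher in coronary than in endocardial cells from E15 onwards, and past 2-fold at P2 and in the adult. Its coronary levels were 37.0 CPM (16.9 to 70.3) at E12, then 29.2 (21.6 to 38.6) at E15, 36.0 (33.7 to 38.5) by P2 and 104 (96.3 to 111) in adults. In endocardial cells it was at 22.2, 15.5, 11.4 and 19.2 CPM. The ratio was 1.67 (0.72 to 3.40), 1.88 (1.20 to 2.95), 3.16 (2.43 to 4.19) and 5.41 (2.1 to 19.9), where the adult value rested on 4 endocardial UMIs. Without barcodes of at least 3 mesenchyme or mural UMIs, an alternative added after the data were seen, it was 4.08 at P2 and 2.16 in the adult.

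Pgf, placental growth factor, was at 4.04, 4.91, 8.69 and 9.58 CPM in endocardial cells and at 4.12, 20.8, 12.6 and 23.9 CPM in coronary cells. Its UMIs sat in few cells. At P2, 7 coronary cells with at least 5 UMIs held 62 of 298 Pgf UMIs, and in the adult 7 such cells held 51 of 172. The 4.07% of adult coronary cells with at least 3 mesenchyme or mural UMIs held 39 of the 172. The adult ratio of coronary to endocardial cells was 2.50, with an interval of 0.68 to 20.8 around it since the endocardial cells held 2 UMIs.

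**Figure D3:**
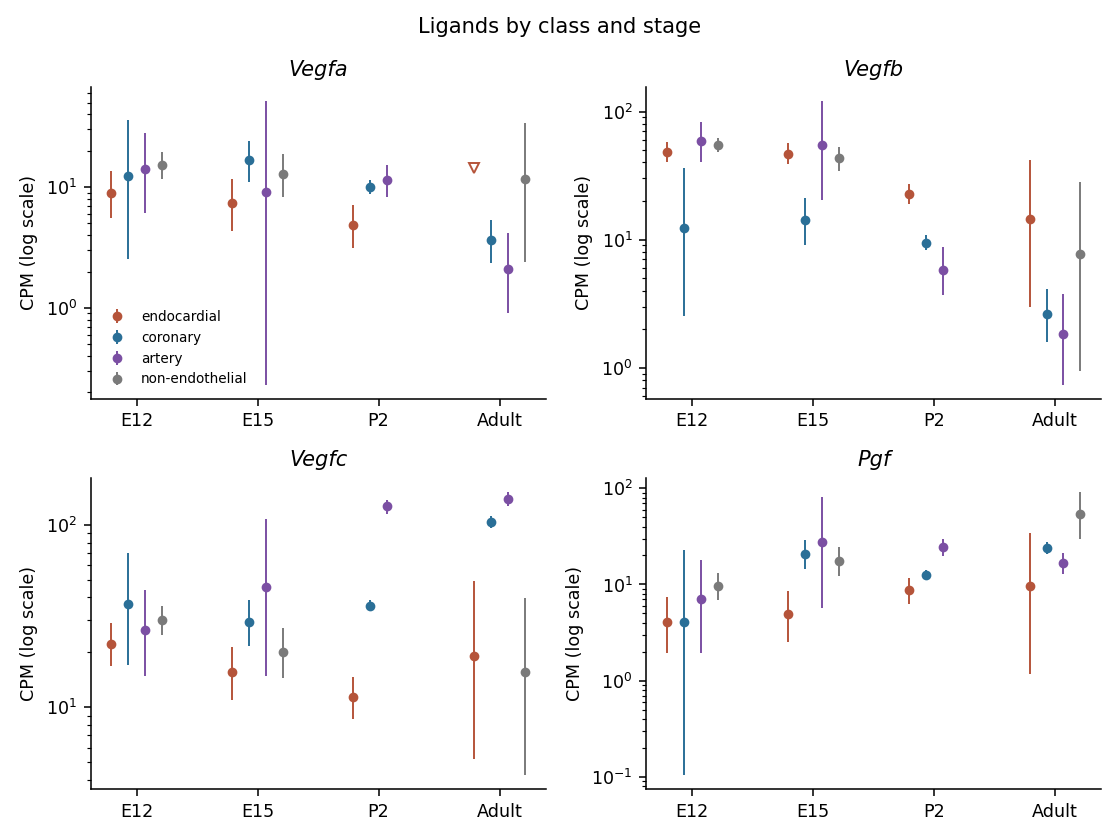
Levels of Vegfa, Vegfb, Vegfc and Pgf in CPM on a log scale, by class and stage, with exact 95% Poisson intervals. The open triangle marks adult endocardial Vegfa, with 0 UMIs, at the level of 3 UMIs; adult Vegfc reaches 139 CPM in artery and 104 in coronary cells.

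Counted over the 4 stages, members were at least 2-fold higher in coronary cells 12 times and at least 2-fold lower 3 times, with at least 50 UMIs in both classes together. Nrp2 accounted for 4 of the higher values, Kdr for 3, Vegfc for 2, and Flt4, Vegfa and Pgf for 1 each, and all 3 lower values were those of Vegfb. By stage, 2 of 7 members with 50 UMIs were higher at E12 beside 3.5% of all genes, 2 of 7 at E15 beside 4.74%, 4 of 9 at P2 beside 10.0% and 4 of 7 in the adult beside 14.5%. At E12, E15 and P2 1 member was lower, beside 15.6%, 9.56% and 8.73% of all genes, and in the adult none was, beside 11.0%. The members' median log2 ratio was 0.47, 0.91, 0.86 and 0.81, against -0.13, -0.10, -0.08 and -0.04 for all genes with 50 UMIs. The E15 value of Kdr fell below 2-fold under 5 alternatives, with ratios of 1.86 to 1.98, and the adult value of Pgf under 2. With cells thinned to 500 UMIs and classes drawn anew, 5 higher and 0 lower values were left, and the P2 ratio of Vegfc was 1.68, while Vegfb was at 0.44 at E15 and 0.48 at P2 on fewer than 50 UMIs.

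**Figure D4:**
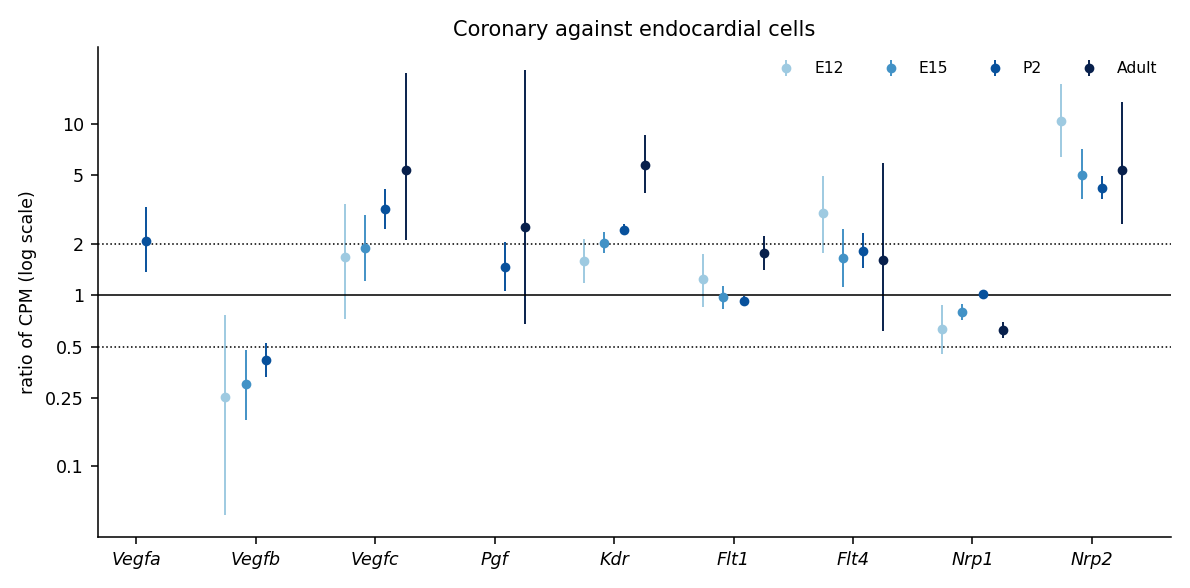
Ratio of coronary to endocardial CPM for each member and stage on a log scale, shown where both classes together held at least 50 UMIs and each held some, with exact 95% intervals and dotted lines at 2 and 0.5. Nrp2 lies above 2 at all 4 stages, Vegfb below 0.5 at E12, E15 and P2, and Kdr goes from 1.59 to 5.72.

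Within coronary cells, Vegfc was the member that differed most between the artery class and the rest. At P2 it was at 126 CPM in artery cells (115 to 138) and at 18 in coronary cells outside that class (16.2 to 20.0), a ratio of 7.0 (6.10 to 8.04). In the adult it was at 139 CPM (128 to 152) against 62.8 (54.8 to 71.8), a ratio of 2.21 (1.89 to 2.61). The level of the artery class was thus close at both stages, and the level outside it was the one that was higher in the adult. The artery genes Gja4 and Gja5 were at 403 and 123 CPM in the P2 class and at 88.5 and 64.1 in the adult class. In all coronary cells they were at 125 and 29.4 CPM at P2 and at 65.0 and 47.2 in the adult. The adult class was thus less marked by these 2 genes. Emcn was at 396 CPM in the P2 class and at 488 in all P2 coronary cells, and at 803 and 796 in the adult. Cxcl12, which helps to define the class, was at 273 CPM in all coronary cells at P2 and at 1636 in the adult. Adult artery cells are therefore only cells that met the marker rule. The part of this in the Vegfc levels was not tested. Artery cells were 14.8% of the coronary cells at P2 and held 57.9% of their Vegfc UMIs, and in the adult they were 45.6% and held 70.9%. At P2 the coronary cells outside the artery class stood at 18 CPM of Vegfc beside 11.4 in endocardial cells. With an endothelial marker required in each artery cell the ratios were 7.30 and 2.26.

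Nrp2 was the member that was lower in artery cells at both stages. It was at 72.5 CPM at P2 against 153 in the other coronary cells, a ratio of 0.47 (0.42 to 0.53), and at 117 against 246 CPM in the adult, a ratio of 0.48 (0.42 to 0.53). Flt4 was at 17.5 against 31.5 CPM at P2 (ratio 0.55, 0.43 to 0.71) and at 30.5 against 30.4 in the adult. The arterial part of Nrp2 in both neuropilins was 11.6% at P2 and 10.2% in the adult, against 23.1% and 19.2% in the other coronary cells.

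Kdr hardly separated the artery class from other coronary cells, with ratios of 1.04 (0.99 to 1.11) at P2 and, among adult cells, 1.07 (1.02 to 1.13). Flt1 was higher in artery cells within 2-fold, with 311 against 215 CPM at P2 and 711 against 598 CPM in the adult, ratios of 1.45 (1.36 to 1.54) and 1.19 (1.12 to 1.26). Nrp1 had ratios of 1.08 and 0.99. Pgf was higher in artery cells at P2 and lower in the adult, and the difference between the stages was not tested. It was at 24.6 CPM in P2 artery cells against 10.6 outside, and at 16.8 CPM in adult artery cells against 33.3 outside, with ratios of 2.32 (1.81 to 2.97) and 0.50 (0.37 to 0.69). At P2, 4 artery cells with at least 5 Pgf UMIs held 38 of 97, and without the top cell of each group the ratio was 1.90. The adult ratio of Pgf, 0.505 before rounding, stayed just short of the 2-fold limit.

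In all, 2 of 9 members were at least 2-fold higher in artery cells at P2, beside 2.44% of all genes, and 1 of 7 in the adult, beside 1.3%. Lower values numbered 1 at both stages, beside 3.46% and 1.79%. In the embryo the artery-marker barcodes had 28.4 CPM of Kdr at E12 and 110 at E15, against 226 and 293 in the coronary cells outside the class. The ratios were 0.13 (0.07 to 0.22) and 0.38 (0.19 to 0.66), where 88.0% of these barcodes at E12 carried at least 3 mesenchyme or mural UMIs. Without such barcodes the Kdr ratio was 0.077 (0.0019 to 0.45) at E12 and 0.64 (0.21 to 1.51) at E15, so the E15 value was no longer past 2-fold. Both rest on few UMIs, since 15 of the 16 Kdr UMIs at E12 and 7 of the 12 at E15 lay in the barcodes left out. At E12, 7.26% of all genes were lower in these barcodes and 12.9% higher, and at E15 15.9% and 6.32%.

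**Figure D5:**
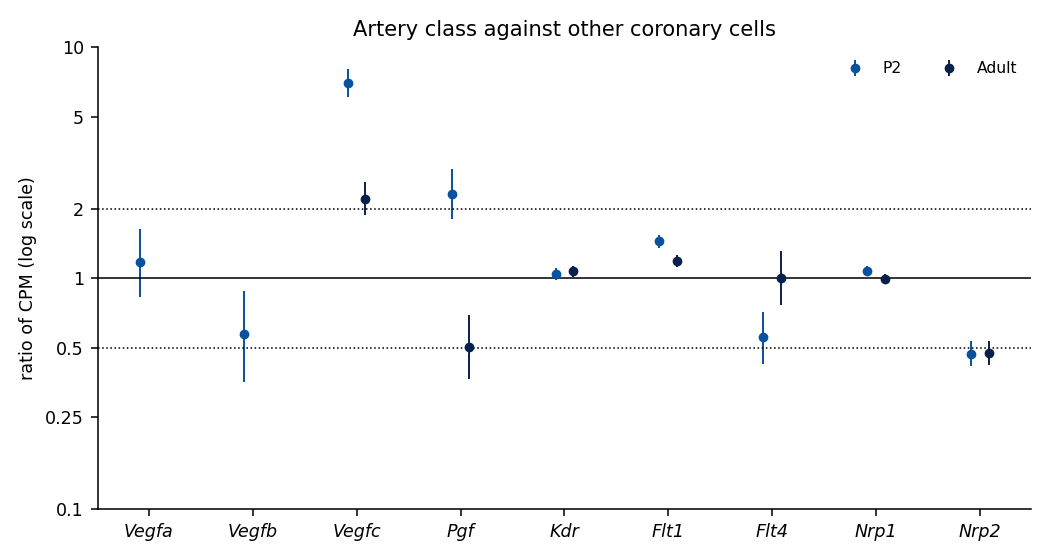
Ratio of CPM in artery cells to coronary cells outside the artery class for each member at P2 and in the adult on a log scale, with exact 95% intervals and dotted lines at 2 and 0.5. Vegfc lies at 7.0 and 2.21, Nrp2 at 0.47 and 0.48, and Pgf at 2.32 and 0.50.

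The study compares tip cells, the leading cells of vessel sprouts, marked by Esm1 or by Apln, and these markers are both genes that respond to VEGF. Coronary cells with an Esm1 UMI and no Apln UMI numbered 5, 15, 67 and 108 at E12, E15, P2 and adulthood, and those with Apln alone 7, 92, 939 and 124. Another 0, 3, 36 and 12 cells held UMIs of both and were placed in neither group. At E12 no member reached 50 UMIs in both groups together, so the receptors of these cells could not be compared at this depth. At P2 Vegfc was at 82.8 CPM in Esm1 cells (56.3 to 118) and at 27.5 in Apln cells (23.4 to 32.1), a ratio of 3.01 (1.98 to 4.44). Kdr was at 428 against 388 CPM and Flt1 at 267 against 202 CPM, ratios of 1.10 (0.93 to 1.29) and 1.32 (1.07 to 1.62). The Esm1 and Apln cells of P2 therefore differed more in a ligand than in the VEGF-A receptors.

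In the adult the receptors differed as well. Flt1 was at 846 CPM in Esm1 cells (725 to 981) and at 353 in Apln cells (291 to 423), a ratio of 2.40 (1.89 to 3.06). Kdr was at 1203 against 638 CPM, a ratio of 1.88 (1.56 to 2.28). Nrp2 went the other way, at 96.6 CPM in Esm1 cells and 389 in Apln cells, a ratio of 0.25 (0.15 to 0.40). Pgf was at 9.66 against 179 CPM, on 2 and 59 UMIs. Higher values numbered 1 of 7 members at P2 and 1 of 5 in the adult, beside 2.89% and 4.32% of all genes, and lower values 1 and 2, beside 8.17% and 4.05%.

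Set against coronary cells with neither marker, 2 of 7 members with 50 UMIs were at least 2-fold higher in adult Apln cells and 1 was lower. For Esm1 cells, and for Apln cells of the earlier stages, no share of all genes is at hand, and their calls are not compared. The Pgf level of the adult Apln cells was 179 CPM (137 to 231). It was 11.3 times (8.06 to 15.7) that of 15.9 CPM in cells with neither marker, and no single cell held more than 11 of the 59 UMIs. Nrp2 was 2.29 times as high (1.89 to 2.75), and Vegfc was at 33.4 against 109 CPM, a ratio of 0.31 (0.15 to 0.55). At P2 the Pgf levels of these groups were 13.4 and 12.2 CPM. In the adult 3.73% of all genes were higher and 10.4% lower in Apln cells. Median depth was 2362 UMIs in adult Apln cells and 1460 in adult cells with neither marker, and its part in the difference was not tested.

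Between P2 and the adult, coronary cells had more of both VEGF-A receptors, Nrp1 and Vegfc and less of Vegfa and Vegfb. The ratios of adult to P2 CPM were 2.12 (2.05 to 2.2) for Kdr, 2.89 (2.78 to 3.0) for Flt1, 2.01 (1.95 to 2.07) for Nrp1 and 2.88 (2.60 to 3.18) for Vegfc. For Vegfa the ratio was 0.36 (0.23 to 0.54) and for Vegfb 0.28 (0.16 to 0.45). These 4 of 9 higher and 2 of 9 lower members stood beside 9.97% and 12.3% of all genes. The members' median log2 ratio was 0.93, and that of all genes -0.00. Nrp2 had a ratio of 1.28 (1.20 to 1.36) and Flt4 of 1.05 (0.89 to 1.22). Pgf, at 1.90 (1.56 to 2.30), was just under 2-fold.

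The earlier steps in coronary cells were smaller. Between E12 and E15, Flt4 was the only one of 6 members with 50 UMIs past 2-fold, at a ratio of 0.41 (0.25 to 0.72), beside 2.33% of genes lower and 8.73% higher. Between E15 and P2 no member was past 2-fold, beside 17.6% of genes higher and 4.08% lower. The median of all genes was 0.35 higher on the log2 scale at P2, and that of the members 0.30. On the same scale Kdr, at 0.30, and Flt1, at 0.36, stood near the median of all genes, whereas Nrp1 was at 0.74 and Nrp2 at 0.54. From E12 to the adult the ratio was 6.16 (4.54 to 8.59) for Nrp1, 4.36 (3.16 to 6.19) for Flt1, 3.39 (2.60 to 4.51) for Kdr, 2.80 (1.47 to 6.14) for Vegfc and 0.36 (0.23 to 0.59) for Flt4. Thinned to 500 UMIs, the Vegfc ratio turned to 0.90 (0.25 to 7.51), and none of the 6 lower values between stages, Flt4 included, was still called. Pgf was past 2-fold too, on 1 UMI at E12. Those 5 higher members of 7 stood beside 29.8% of genes, and the 1 lower beside 11.3%. Over this span the median log2 ratio was 1.48 for the members and 0.33 for all genes.

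In endocardial cells the step from P2 to the adult was carried by Nrp1, at 3.29 times the P2 level (2.93 to 3.68), the only one of 7 members past 2-fold, beside 8.18% of genes higher and 14.3% lower. Flt1 had a ratio of 1.53 (1.20 to 1.92) and Kdr of 0.90 (0.59 to 1.31). From E12 to the adult Nrp1 was 6.27 (5.50 to 7.16) and Flt1 3.07 times as high (2.37 to 3.94), and Vegfb was at a ratio of 0.30 (0.06 to 0.89). The 11 genes of the pan-endothelial list summed to 3386, 5661, 8693 and 10370 CPM in these cells at the 4 stages, higher at each later one too, and the part of this in the member steps was not tested. Of all genes, 17.7% were higher and 18.7% lower over that span. Between E15 and P2 Vegfb was at 0.48 (0.37 to 0.63), beside 4.07% of genes lower and 11.9% higher, and between E12 and E15 no member was past 2-fold, beside 2.46% and 2.67%. At least 3 mesenchyme or mural UMIs were carried by 44 of 75 adult and 642 of 1082 P2 endocardial cells. In these adult and P2 classes Dcn was at 2357 and 643 CPM and Postn at 331 and 524. Of the 7 mesenchyme genes 5 were found in the adult class, and Col1a1 was at 0. An alternative without barcodes of at least 3 such UMIs was added after the data were seen. There adult Nrp1 was at 3.83 times the P2 level (3.13 to 4.64) and at 6.57 times the E12 level (5.33 to 8.05). Both steps were thus as large, and Flt1 was at 2.27 times the E12 level (1.40 to 3.51).

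Coronary cells with at least 2 UMIs of the division genes Mki67, Top2a, Ccnb2, Ube2c and Cdk1 numbered 40 in the adult, 1063 at P2 and 229 at E15. At P2 they had the same Kdr level as the other coronary cells, with a ratio of 1.00 (0.96 to 1.05), less Vegfc at 0.45 (0.37 to 0.54) and less Flt1 at 0.75 (0.71 to 0.80). Vegfb was at 1.85 times (1.41 to 2.43). In the 40 dividing adult cells Kdr was at 0.38 (0.28 to 0.50) and Flt1 at 0.33 (0.23 to 0.45) of the level in the other cells. Vegfc and Flt4 were lower too, making 4 of 7 members beside 13.5% of genes, and Pgf alone was higher, on 9 UMIs, beside 9.88%. At P2 Vegfc was the only one of 9 members past 2-fold, and 4.64% of genes were lower and 5.06% higher. The dividing cells were deeper, with a median of 3324 UMIs against 1478 in the other adult cells and 6727 against 4165 at P2. The part of depth in these ratios was not tested.

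Barcodes with at least 2 UMIs of the lymphatic list (Prox1, Lyve1, Mmrn1, Reln, Pdpn and Ccl21a) numbered 38, 72, 531 and 41. Against coronary cells without them, Flt4 was 3.83 times as high at E15 (1.91 to 7.12), 3.75 at P2 (3.21 to 4.38) and 3.54 in the adult (1.95 to 5.98). The Flt4 levels were 125, 80.1 and 104 CPM in these barcodes. Nrp2 was 3.70 times as high at E12 (2.08 to 6.67) and 4.87 at E15 (3.39 to 6.87), but 1.29 at P2 and 0.84 in the adult. These barcodes were mixed: in the adult their 7 macrophage and leukocyte genes summed to 3518 CPM, against 104 in the coronary cells, and their 5 endocardial genes to 1565 against 160, and at P2 the endocardial genes were at 809 against 201. What this adds to the Flt4 and Nrp2 ratios was not tested. Nrp1 was at 28.8 CPM in the E15 lymphatic barcodes against 322 in the coronary cells, on 3 UMIs. Higher by at least 2-fold were 1 of 2 members with 50 UMIs at E12, 2 of 5 at E15, 3 of 9 at P2 and 1 of 7 in the adult. Of all genes 1.69%, 4.24%, 7.15% and 12.1% were at least 2-fold higher in these barcodes at the 4 stages. Some members were also at least 2-fold lower at E15, P2 and in the adult. No share of all genes is at hand for these, and they are not read as a result.

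The non-endothelial barcodes had less of the receptors, but not none. Kdr was at 48.3 CPM at E12 (41.8 to 55.4), 87.5 at E15 (75.2 to 101) and 202 in the adult (151 to 265), and its ratio to the other barcodes was 0.29, 0.45 and 0.27. Flt1 was at 42.0, 105 and 140 CPM, with ratios of 0.32, 0.57 and 0.21. Pgf was the only member past 2-fold higher, at 9.65, 17.6 and 54.5 CPM, with ratios of 2.56 (1.38 to 4.99), 2.06 (1.29 to 3.29) and 2.31 (1.24 to 3.99). These values were close to the limit: the E15 ratio was 1.92 and the adult one 1.79 without the top cell of each group. With cells thinned to 500 UMIs and classes drawn anew, no Pgf value reached 50 UMIs and the E15 ratio turned to 0.88, while the adult ratios of Kdr and Flt1 were 0.71 and 0.81, no longer past 2-fold. Of all genes, 4.9%, 4.1% and 9.09% were higher and 3.85%, 1.8% and 16.5% lower at E12, E15 and in the adult.

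These barcodes were mixed. A UMI of another gene of the pan-endothelial list was found in 1502 of 2995 at E12, 1410 of 1867 at E15 and 116 of 133 in the adult. Of the 133 adult barcodes, 101 were also in the coronary class. The 1298 barcodes at E12 and 628 at E15 assigned to mesenchyme and fibroblast genes had 16.4 and 12.3 CPM of Kdr and 14.0 and 22.4 of Flt1. Those that met no such list had 105 and 159 CPM of Kdr, near the endocardial level of 143 and 145, and a median depth of 1034 and 807.5 UMIs. Nrp1, which mesenchymal cells also use, was at 136 and 173 CPM in the mesenchyme barcodes. In the adult, 26 mural barcodes held 11 of the 14 non-endothelial Pgf UMIs, a level of 191 CPM. At E12 the 156821 barcodes of 1 to 100 UMIs, taken as a view of free RNA, had 145 CPM of Kdr (119 to 176). The 16.4 CPM in mesenchyme barcodes lay below that level. Fabp4 was at 586 CPM in these low barcodes, against 46.1 in E12 barcodes over 100 UMIs and under the cutoff. In E12 endocardial cells Fabp4 was at 2.83 CPM and in E12 coronary cells at 692, but it helps to define both classes, so these levels follow from the rule. In the E12 non-endothelial barcodes, which are defined without it, Fabp4 was at 10.4 CPM. Whether the UMIs of the low barcodes are free RNA of the E12 cells alone was not tested. How much of the receptor UMIs in the non-endothelial barcodes is free RNA was not tested.

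The wider pathway was followed in 96 genes of 5 lists, set between coronary and endocardial cells. Among 20 genes that respond to VEGF, 2 of 8 with 50 UMIs were at least 2-fold higher in coronary cells at E12, 12 of 16 at E15, 14 of 19 by P2 and 8 of 18 in adults, and 3, 2, 1 and 2 were lower. These counts stand beside the shares of all genes given above, 3.5%, 4.74%, 10.0% and 14.5% higher and 15.6%, 9.56%, 8.73% and 11.0% lower. The list's median log2 ratio was -0.68, 3.26, 2.67 and 0.75, against -0.13, -0.10, -0.08 and -0.04 for all genes. Igfbp3, which binds insulin-like growth factors, was higher at all 4 stages, with 119 against 29.5 CPM at E12 and 442 against 47.0 at E15. Plvap, which forms the diaphragms of fenestrated endothelium, was lower at all 4, with 111 against 324 CPM at E12 and 51.3 against 1782 in the adult. The list holds Esm1 and Apln, the tip cell markers named above.

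Of 37 signalling genes downstream of the receptors, 2 of 29, 1 of 30, 2 of 35 and 13 of 31 were higher in coronary cells, and 1, 0, 2 and 2 lower. Set against the same shares of all genes, the higher counts at E12, E15 and P2 were near or under the background, and the adult one was above 14.5%. Hras, a small GTPase that links receptor kinases to the MAP kinase cascade, was the gene higher at all 4 stages, with ratios of 2.02 (1.41 to 2.82), 2.12 (1.73 to 2.60), 2.09 (1.80 to 2.44) and 2.13 (0.72 to 10.4). The adult counts rest on an endocardial class of 75 cells. Of 13 receptor partners and trafficking genes, 0 of 11, 0 of 11, 2 of 13 and 2 of 12 were higher. At the same stages 2, 3, 2 and 2 were lower. Of 12 semaphorins and plexins, 0 of 3, 0 of 6, 2 of 8 and 3 of 6 were higher. Those lower numbered 1, 2, 2 and 0. The list of the hypoxia response, which induces Vegfa in many tissues, had 14 genes. Of these, 2 of 6, 4 of 13, 1 of 13 and 5 of 12 with 50 UMIs were higher, and none was lower. For these 3 lists too the shares of all genes above are the background, and between 3 and 13 of their genes had 50 UMIs.

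Likeness of pattern was measured as Pearson's r of log2(CPM + 10) among 10356 genes with at least 200 UMIs. It was taken over the 12 groups of endocardial, coronary and artery cells by stage, which share libraries and cells. At E12 and E15 the artery groups are the artery-marker barcodes. Of these, 257 of 332 and 41 of 69 were also non-endothelial barcodes. Their mesenchyme genes summed to 2614 and 5453 CPM, and their Kdr was at 28.4 and 110 CPM. How much of each r comes from these groups was not tested. Closest to Kdr were Arhgef15 (r = 0.995), Git2 (0.976) and Prex2 (0.968). Closest to Flt1 were Adgrf5 (0.977), Bst2 (0.974) and Ccdc174 (0.972). Nrp1 was followed by Rhbdd1 (0.984), Mavs (0.979) and Stat3 (0.978), and Flt4 by Trp53rkb (0.948), Cpsf1 (0.906) and C730034F03Rik (0.892).

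The closest genes to Nrp2 were Aplnr (0.972), itself one of the markers that define coronary cells, N4bp3 (0.957) and Arhgap18 (0.944). Those to Vegfc were Sema3g (0.944), Picalm (0.942) and Rassf4 (0.941). Among the members themselves Kdr and Flt1 had r = 0.88, Kdr and Nrp2 0.82, Flt1 and Nrp1 0.75, and Kdr and Vegfb -0.88. With so few groups, the embryonic artery-marker barcodes among them, such values are descriptions of these libraries. They also depend on the prior: with log2(CPM + 1), 12 of the 18 named genes were again among the closest, but for Nrp1 none of the 3, and for Vegfc Picalm alone.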

How the data were processed

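Single-cell RNA was measured in 4 libraries of sorted CD31+/CD45- heart cells, 1 per stage. The authors made 10x Genomics 3′ libraries and mapped them, per the submitters' processing notes, with Cell Ranger 2.2 to mm10. The deposited values are raw UMI counts per gene and barcode. The E12 file holds all barcodes, so the 5732 with at least 452 UMIs were used, a limit recomputed as 0.1 of the 0.99 quantile of the 3000 deepest barcodes, in the manner of Cell Ranger. The other files hold called cells, and no further filter was applied.

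UMIs were summed per class and stage in Python 3.11.15 (pandas 2.3.3, scipy 1.17.1). Levels have exact Poisson intervals, ratios exact conditional binomial intervals and shares exact binomial intervals, at 95%. A gene was called at a ratio of at least 2, or at most 0.5, with at least 50 UMIs in both groups together. The higher group had to hold UMIs, and a 0 in the lower group was counted as 3 UMIs. The share of all genes called the same way is printed beside the members' counts. A level of 0 has a floor of 3 UMIs. Doublets were not removed: a Scrublet-type score over 0.15 was found in 4.29%, 5.66%, 3.86% and 2.66% of barcodes, and leaving these out is an alternative. The code was tested on simulated data.

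Named are the 9 members, the 3 genes most like each of 6 members, and the genes of a pathway list past 2-fold in 1 direction at all 4 stages. Members, classes and lists were chosen with earlier results of these data known. Alternatives were other scaling, limits, class rules, thinning and left-out cells. With 1 library per stage there is no p-value. Depth was 8122358, 7079759, 29645059 and 7650091 UMIs in all.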

Additional observations from a re-analysis of the deposited data

Results flagged for a closer look

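Some ratios stood on opposite sides of 1 at different stages, with intervals that did not overlap, and none of these differences was tested. Flt1 in coronary against endocardial cells was at 0.928 at P2 and 1.75 in the adult. Pgf in artery against other coronary cells was at 2.32 at P2 and 0.505 in the adult. Kdr in the artery-marker barcodes was at 0.125 at E12 and 0.376 at E15 of the level in other coronary cells, and at 1.07 in adult artery cells. Vegfc in non-endothelial against other barcodes was at 1.34 at E12 and 0.153 in the adult.

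The E12 file also held 156821 barcodes with 1 to 100 UMIs, which no comparison used, and all 9 members were found in them. Kdr was at 145 CPM, Flt1 at 114, Nrp1 at 212, Flt4 at 26.0 and Nrp2 at 23.3 CPM. Among the ligands Vegfa was at 37.0 CPM, Vegfb at 38.4, Vegfc at 24.7 and Pgf at 9.59 CPM. The Vegfa value stood above the 8.89 CPM of endocardial and the 15.2 CPM of non-endothelial barcodes called as cells at E12. Fabp4 was at 586 CPM in the same low barcodes, and where their UMIs came from was not tested.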

How the results depend on the processing

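No paired analysis was possible because each stage had 1 library and no result came from a test. Of 582 member values under an alternative, 579 kept the direction of the reported ratio and 521 stayed past 2-fold, out of 59 reported calls. The 582 include the alternative without the minimum of UMIs, which leaves every ratio as reported and so could not change a call. Another 17 values were left out because a group held no UMI. Thinning to 500 UMIs, with classes drawn anew from the thinned counts, turned 3 values: Nrp2 in artery-marker barcodes at E15 (1.36), Pgf in non-endothelial barcodes at E15 (0.88) and coronary Vegfc from E12 to the adult (0.90). It also left 5 higher and 0 lower values in coronary against endocardial cells (12 and 3 as reported), 0 higher and 4 lower in non-endothelial barcodes (3 and 10) and 0 lower between stages (6). Of 23 values it lost that still held UMIs in both groups, 9 stayed past 2-fold on fewer than 50 UMIs and 14 did not, and the cause was not tested. Without the minimum of 50 UMIs, artery cells had 5 higher and 9 lower values (3 and 5) and non-endothelial barcodes 5 higher. Non-endothelial barcodes had 1 higher value with 1 more UMI required, 1 without the tenth of barcodes highest in immediate-early genes and 1 without the top cell. Without barcodes of at least 3 mesenchyme or mural UMIs, added after seeing the data, artery cells had 5 higher values. Without the top cell, Esm1 against Apln cells had 1 lower value (3 as reported). Median-of-ratios scaling lost no call. Depth limits the E12 coronary cells, with 242947 UMIs in all, and the adult endocardial cells, with 208774.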

Other observations

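In the adult, coronary cells outside the artery class that held a UMI of the vein factor Nr2f2 had 304 CPM of Kdr, on 79 UMIs, against 767 CPM in those without it, a ratio of 0.40 (0.31 to 0.50). Vegfc was at 127 against 57.6 CPM, a ratio of 2.2 (1.47 to 3.21), and Flt1 at 512 against 605 CPM. At P2 the Kdr ratio was 0.82 (0.78 to 0.87) and the Vegfc ratio 1.48 (1.19 to 1.83). In the adult 5.29% of all genes were higher and 7.99% lower by at least 2-fold in the 121 cells with Nr2f2.

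The 183 endocardial cells of P2 with at least 2 UMIs of the valve genes Cldn11, Enpp2, Pthlh and Wnt4 held 38 of the 45 endocardial Pgf UMIs, 37.7 against 1.68 CPM, and 1 endocardial cell held 13 of the 45. Their Flt1 was at 322 against 230 CPM and their Nrp1 at 352 against 546 CPM in the other endocardial cells, with ratios of 1.40 (1.23 to 1.59) and 0.65 (0.58 to 0.72). Kdr was at 150 CPM in both.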
